A study of Homo sapiens with 6 samples.

Results

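RNase MRP is a ribonucleoprotein built from 1 RNA, RMRP, and a set of small proteins. The genes described here are RMRP and the 9 protein genes POP1, POP4, POP5, POP7, RPP14, RPP25, RPP30, RPP38 and RPP40, which were found by their symbols. They make up 10 of the 36601 genes in the count table. RMRP was selected on its large difference between the groups in these same libraries, so its values are given as a description without a test. The protein genes were listed as its partners in the complex and not for their own values, although earlier results of these data were known when the list was made. RNA was sequenced from NK-92, an IL-2-dependent line derived from a human NK cell lymphoma, with 3 libraries from cells stably carrying a control shRNA (shCtrl) and 3 from cells stably carrying an shRNA against the lncRNA miR155HG (shmiR155HG). All 6 libraries came from cells stimulated for 12 h with IL-2 at 1000 U/mL plus IL-12 at 10 ng/mL, and RNA was captured by its poly(A) tail on oligo(dT) beads. Whether each stable line was a clone or a pool, and whether the 3 replicates were separate cultures, is not given in the sources used here, so p-values measure only the spread between these libraries, which may be technical.

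The catalytic core of RNase MRP is the RNA, which is made by RNA polymerase III (Pol III) and has no poly(A) tail in its mature form. The enzyme cuts the first internal transcribed spacer (ITS1) of the ribosomal RNA precursor, a step that separates the RNAs of the small and large ribosomal subunits. Most of its proteins are shared with RNase P, the enzyme that trims the 5′ end of tRNA precursors and has its own RNA, RPPH1. Variants in RMRP cause cartilage-hair hypoplasia, a disorder of short stature with immune deficiency.

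RMRP carries the identifier ENSG00000269900 in the count table. GENCODE v44 has no entry under that identifier and lists RMRP under ENSG00000277027, a ribozyme on the minus strand of hg38 at chr9:35657754-35658017, with 1 exon of 264 nt. The gene model used for counting may therefore differ from the sequence shown here. The sequence is printed because the poly(A) capture bears on this RNA. It has a GC content of 63.3%, its longest run of A is 3 bases and occurs at 2 places (in capitals), and it holds no AATAAA, the commonest polyadenylation signal.

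RMRP: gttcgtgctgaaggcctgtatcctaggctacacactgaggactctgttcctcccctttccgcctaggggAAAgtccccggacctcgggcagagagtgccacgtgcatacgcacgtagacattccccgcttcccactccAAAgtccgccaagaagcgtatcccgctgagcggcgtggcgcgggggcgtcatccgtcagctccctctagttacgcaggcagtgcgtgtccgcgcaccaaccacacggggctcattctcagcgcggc

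RMRP lies head to head with CCDC107, a coiled-coil protein gene on the plus strand, and 274 bases lie between RMRP and the RefSeq start of CCDC107. The RefSeq promoter window of CCDC107 (GRCh38.p14, plus strand, chr9:35658042-35658341) begins 25 bases upstream of RMRP. It leaves out the bases nearest RMRP and covers the rest of the stretch between the genes. The window is printed because the levels of this pair of neighbours are compared. Capitals mark, from left to right, a TATA box (searched as TATAAA) and a core of the proximal sequence element that recruits the SNAP complex (TCACCNTNA), both reading towards RMRP, and an octamer (ATGCAAAT), the motif of POU2F1.

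CCDC107: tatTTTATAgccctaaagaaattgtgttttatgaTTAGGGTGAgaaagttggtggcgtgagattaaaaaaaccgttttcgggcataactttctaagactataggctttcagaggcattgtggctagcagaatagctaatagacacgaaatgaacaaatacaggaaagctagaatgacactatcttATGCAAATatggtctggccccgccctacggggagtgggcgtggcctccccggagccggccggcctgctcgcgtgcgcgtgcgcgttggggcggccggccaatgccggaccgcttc

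The TATA box lies 28 to 33 bases upstream of RMRP, the proximal element 59 to 67 bases and the octamer 210 to 217 bases, the order known from Pol III genes with an upstream promoter. On either strand, TATAAA occurs in 11.5% of 35116 RefSeq promoter windows of the same length, the proximal element core in 2.69% and the octamer in 1.77%, while 4 windows hold all of them. Of the 8 protein genes with a window in this table, 0 hold TATAAA or the octamer, and 1, RPP25, holds the proximal element core. These matches describe letters in the sequence and do not show that a factor was bound.

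The total count was 33454786 to 39157264 per library. Levels are given as CPM, counts scaled to library size with TMM factors, and 12263 genes over 1 CPM in 2 or more libraries were tested with the quasi-likelihood test of edgeR. The log2 ratio (the log2 fold change of the plots) is shmiR155HG over shCtrl, values after ± are SDs over n = 3 libraries, and values of single libraries are listed in the order of replicates 1, 2 and 3. MIR155HG, the target of the shRNA, was counted 73, 67 and 62 times in shCtrl and 28, 19 and 10 times in shmiR155HG libraries, without overlap. Its log2 ratio was -1.78 (SE 0.43, edgeR adjusted p = 0.00450). MIR155HG was over 1 CPM in 3 of 3 shCtrl and 0 of 3 shmiR155HG libraries, so it entered the test only through the group in which it was high. Of 8 NK markers, 7 were over 1 CPM in every library, among them NCAM1, KLRD1 and NKG7, and the 8 summed to 3956 to 3968 CPM in shCtrl and 3513 to 3639 CPM in shmiR155HG libraries. Within this list the cytotoxic genes GZMB (1195 ± 42.5 to 543 ± 29.9 CPM) and PRF1 (328 ± 10.9 to 285 ± 10.3 CPM) fell and IL2RB, an IL-2 receptor chain, rose (1006 ± 44.9 to 1270 ± 17.8 CPM), with edgeR adjusted p = 7.03e-19, 0.000419 and 1.35e-08. The T cell markers CD3E and TRAC, the B cell marker PAX5 and the myeloid markers CSF1R and ITGAM were also over 1 CPM throughout, while CD8B and MPO were at 0. The B cell list summed to 229 to 265 CPM in shCtrl and 341.0 to 344.2 CPM in shmiR155HG libraries, the T cell list to 398 to 409 and 400 to 417 CPM, and the myeloid list to 12.2 to 20.8 and 10.8 to 13.8 CPM, and the part of these lists in the results for RMRP was not tested. The titles of all 3 shmiR155HG libraries name that hairpin, but the treatment labels of replicates 2 and 3 read shmiR156HG and shmiR157HG, and the titles were followed.

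RMRP was barely detected in shCtrl cells and was several-fold higher in shmiR155HG cells. It was counted 4, 10 and 18 times in the shCtrl libraries and 70, 117 and 41 times in the shmiR155HG libraries. These counts correspond to 0.103, 0.274 and 0.462 CPM and to 1.82, 3.07 and 1.23 CPM. Every shmiR155HG library lay above every shCtrl library, and the nearest were replicate 3 of each group. The mean level was 0.280 ± 0.180 CPM in shCtrl and 2.04 ± 0.943 CPM in shmiR155HG cells. The fitted log2 ratio was 2.86 (SE 0.51), a 7.24-fold higher level. In bulk RNA a higher level in each cell and a larger share of cells with the RNA cannot be told apart. The values cover only RMRP molecules that passed the poly(A) capture, so a larger captured share cannot be told apart from these either.

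The spread of RMRP within a group was wide. Its SD was 64.2% of the mean in shCtrl and 46.2% in shmiR155HG libraries. Its fitted biological coefficient of variation was 31.8%, near the trend of 28.8% at its abundance, where the common value of all genes was 8.71%. The log2 ratio was 3.43 without shCtrl replicate 3 and 2.44 without shmiR155HG replicate 2, the highest library. RMRP was over 1 CPM in 0 of 3 shCtrl and 3 of 3 shmiR155HG libraries, so it entered the test only through the group in which it was high.

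**Figure D1:**
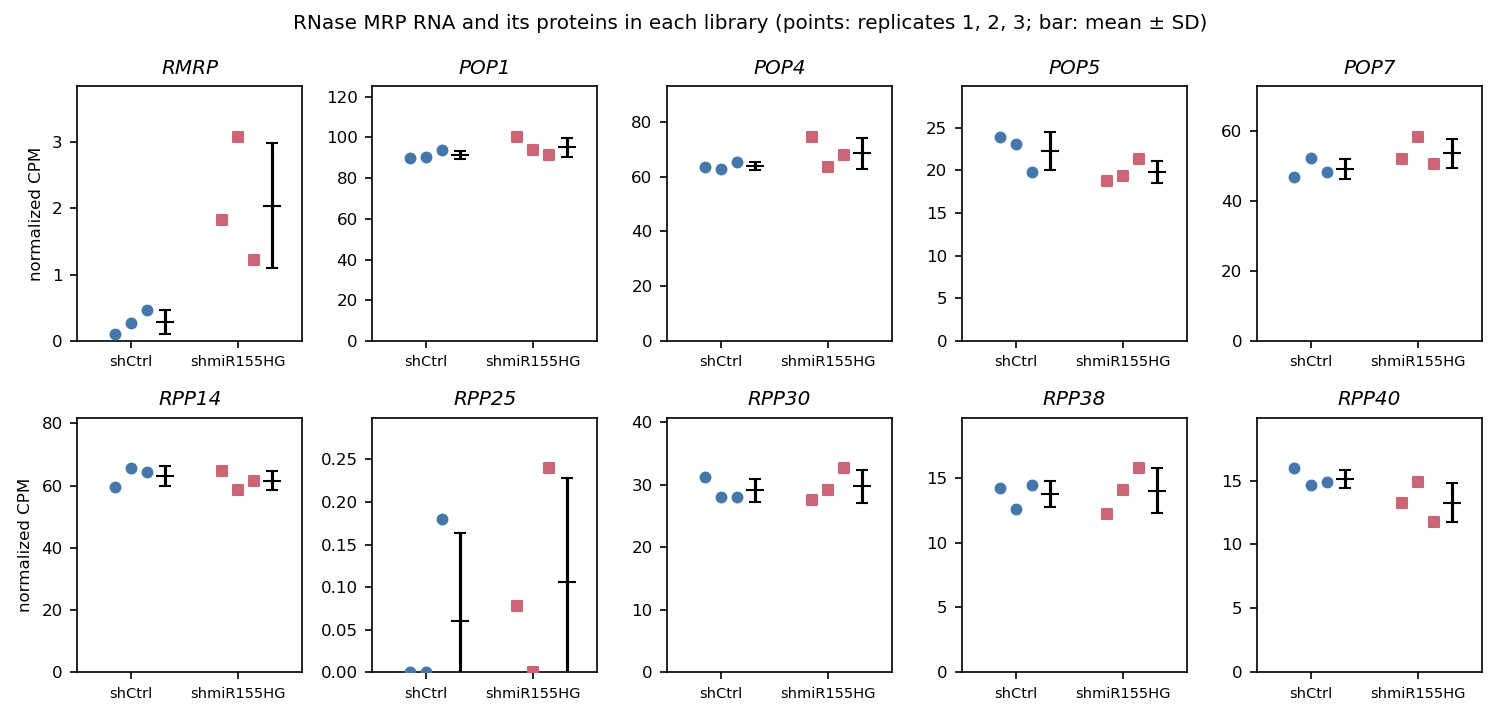
Normalized CPM of each RNase MRP gene (y axis, from 0, own scale for each gene) in the 3 shCtrl libraries (circles) and the 3 shmiR155HG libraries (squares), with the mean and SD beside them. The RMRP groups stand apart, at 0.103 to 0.462 against 1.23 to 3.07 CPM, whereas the groups overlap for all 9 protein genes, and the SD bars of RPP25 are cut at 0.

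No protein gene showed a difference of that size. Of the 9, RPP25 did not pass the filter, and of the 8 that were tested 0 passed an adjusted p of 0.05 in either direction, where 15.3% of all genes tested passed (7.26% higher and 8.02% lower in shmiR155HG cells). At an unadjusted p under 0.05 the count was also 0 of 8, against 27.3% of all genes, and 0 of 8 passed after adjustment with the exact test of edgeR, with DESeq2 or with limma-voom. The groups overlapped for all 8, where they did not overlap for 30.8% of all genes tested. The median log2 ratio of the 8 was 0.027, beside 0.00097 over all genes tested, and the 95% intervals of the single genes lay within -0.45 and 0.29. The 9 protein genes together summed to 345.0 to 349.3 CPM in shCtrl and 351.5 to 363.4 CPM in shmiR155HG libraries.

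POP1, the largest protein of the complex and a scaffold for its RNA, is a gene on the plus strand of chromosome 8 (98117293 to 98159835). It was measured at 89.9, 90.2 and 93.8 CPM in shCtrl and at 100.2, 93.8 and 91.1 CPM in shmiR155HG libraries. The groups intermingled, and the log2 ratio was 0.058 (SE 0.054, 95% interval -0.052 to 0.17). With 3048 to 3845 counts per library, POP1 was bounded far more tightly than RMRP.

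POP4 and RPP38 form a module of the enzyme with RPP21 in RNase P. POP4 (chromosome 19, 29606283 to 29617237, plus strand) reached 63.5, 62.7 and 65.4 CPM in shCtrl and 74.5, 63.4 and 67.8 CPM in shmiR155HG libraries. shmiR155HG replicates 1 and 3 stood above all shCtrl libraries and replicate 2 among them, and the log2 ratio was 0.10 (SE 0.065, 95% interval -0.030 to 0.24). RPP38 (chromosome 10, 15097180 to 15139818, plus strand), a protein with an L7Ae-like fold, reached 14.2, 12.6 and 14.5 CPM against 12.2, 14.1 and 15.7 CPM, with a log2 ratio of 0.025 (SE 0.13). RPP38 overlaps NMT2 and RPP38-DT on the opposite strand, and whether strand was used in counting is not stated, so reads of these genes may be shared.

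POP5, RPP14, RPP30 and RPP40 form the next module. POP5 (chromosome 12, 120578764 to 120581402, minus strand) reached 23.9, 23.1 and 19.8 CPM in shCtrl and 18.8, 19.3 and 21.3 CPM in shmiR155HG libraries. shCtrl replicate 3 alone lay within the range of the shmiR155HG libraries, and the log2 ratio was -0.17 (SE 0.11, 95% interval -0.39 to 0.045). RPP40 (chromosome 6, 4994717 to 5004063, minus strand) reached 15.9, 14.6 and 14.9 CPM against 13.2, 14.9 and 11.8 CPM. Its log2 ratio of -0.19 (SE 0.13, 95% interval -0.45 to 0.070) was the lowest of the 8, and the second shmiR155HG library lay among the shCtrl libraries. RPP40 overlaps LYRM4-AS1 on the opposite strand, so reads of this pair may be shared too.

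RPP30 (chromosome 10, 90871952 to 90908553, plus strand) reached 31.2, 28.0 and 28.1 CPM in shCtrl and 27.5, 29.1 and 32.6 CPM in shmiR155HG libraries. Its log2 ratio of 0.030 (SE 0.089) was small beside the spread of either group. RPP14 (chromosome 3, 58306245 to 58324695, plus strand) shares its locus and strand with HTD2, an enzyme of mitochondrial fatty acid synthesis, so the counts of the pair cannot be fully told apart. RPP14 reached 59.5, 65.5 and 64.5 CPM against 64.7, 58.5 and 61.6 CPM, with a log2 ratio of -0.036 (SE 0.064), and HTD2 was counted at 2.12 ± 1.05 and 3.08 ± 1.17 CPM.

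POP7 and RPP25 bind each other as a pair. POP7 (chromosome 7, 100706121 to 100707486, plus strand) reached 46.9, 52.4 and 48.3 CPM in shCtrl and 52.2, 58.4 and 50.6 CPM in shmiR155HG libraries. Its log2 ratio of 0.13 (SE 0.071, 95% interval -0.018 to 0.27) was the highest of the 8, and the second shCtrl library lay above 2 of the shmiR155HG libraries. RPP25 (chromosome 15, 74954418 to 74956772, minus strand, 1 exon) was counted 0, 0 and 7 times in shCtrl and 3, 0 and 8 times in shmiR155HG libraries, which allows no fold change at this depth. Its paralog RPP25L was well detected, at 17.8 ± 0.734 CPM in shCtrl and 17.2 ± 1.05 CPM in shmiR155HG cells, with a log2 ratio of -0.052 (SE 0.11, edgeR adjusted p = 0.815).

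Levels can be compared between genes only per transcript length, for which CPM was divided by the length of the GENCODE v44 transcript. In shCtrl cells POP7 was highest, at 57.9 ± 3.37 CPM per kilobase, and POP4 followed among the members. POP5 (20.5 ± 2.02), RPP14 (19.3 ± 0.992) and POP1 (19.3 ± 0.456) overlapped between libraries and could not be ordered. RPP30 (12.5 ± 0.799), RPP40 (10.2 ± 0.473) and RPP38 (9.26 ± 0.680 CPM per kilobase) came next, each without overlap with its neighbour in that order. RMRP was at 1.06 ± 0.680 CPM per kilobase in shCtrl cells, below every library of these 8 genes. In shmiR155HG cells it was at 7.73 ± 3.57 CPM per kilobase, and its libraries (4.64 to 11.6) overlapped those of RPP38 (8.22 to 10.6) and RPP40 (7.90 to 9.99). For RMRP this level concerns only molecules that passed the poly(A) capture. It also rests on the length of 264 nt in GENCODE v44, and the gene model used for counting may differ.

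**Figure D2:**
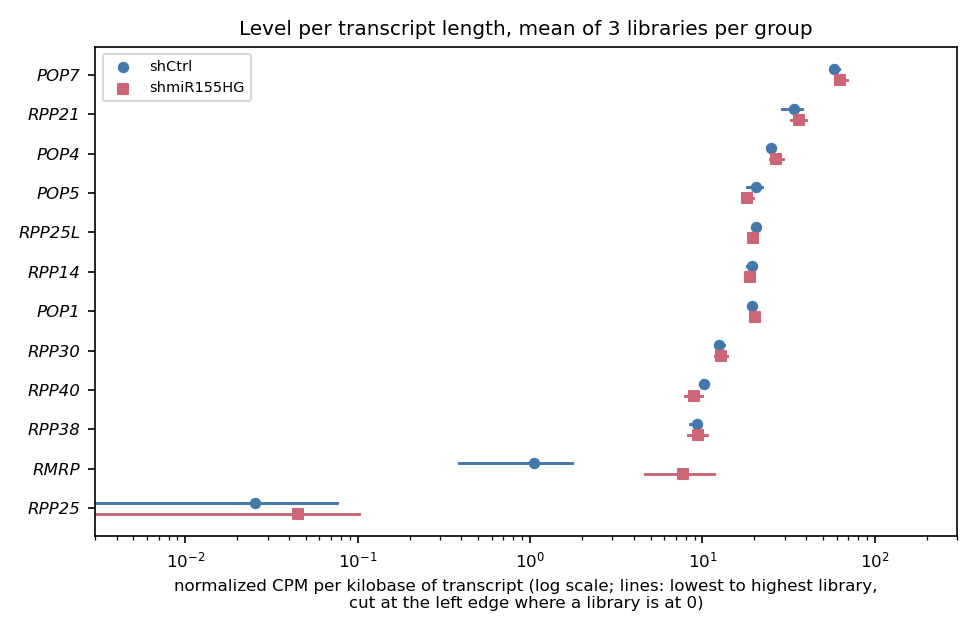
Normalized CPM per kilobase of transcript (x axis, log scale) of the RNase MRP genes and of RPP21 and RPP25L, with the mean of 3 shCtrl (circles) and 3 shmiR155HG libraries (squares) and a line from the lowest to the highest library. RMRP is at 1.06 CPM per kilobase in shCtrl and at 7.73 in shmiR155HG cells, next to RPP38 and RPP40.

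RNase P uses most of the same proteins, and the genes of tRNA end processing were therefore examined beside the complex. Of 8 genes listed, 7 were tested and 0 passed an adjusted p of 0.05 by edgeR, with 0 at an unadjusted p under 0.05, beside 15.3% and 27.3% of all genes. Their median log2 ratio was -0.052, and single values ran from -0.11 to 0.10. RPP21, a protein of RNase P that RNase MRP lacks, was at 17.9 ± 2.45 CPM in shCtrl and 19.2 ± 1.85 CPM in shmiR155HG cells, with a log2 ratio of 0.10 (SE 0.12, adjusted p = 0.635). PRORP, TRMT10C and HSD17B10, the proteins of mitochondrial RNase P, had log2 ratios of -0.11, 0.097 and -0.097, and ELAC2, which cuts the 3′ end of tRNA precursors, one of -0.0026. HSD17B10 was the 1 gene of the 7 tested whose groups did not overlap, where 30.8% of all genes tested did not. For this gene every shmiR155HG library lay below every shCtrl library. RPPH1 had no row under its symbol in the count table and could not be analysed.

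**Figure D3:**
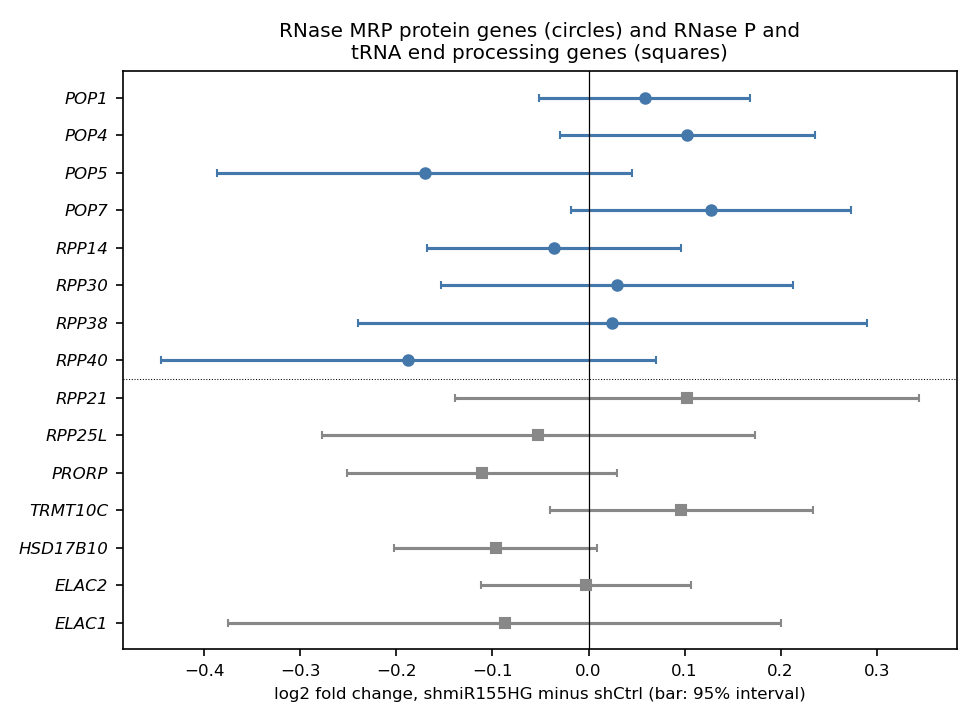
Log2 fold change of shmiR155HG against shCtrl (x axis) with its 95% interval for the 8 tested protein genes of RNase MRP (circles) and 7 genes of tRNA end processing (squares). Every interval includes 0, and the values lie between -0.19 and 0.13, whereas RMRP (2.86) is beyond the axis and not drawn.

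Pol III transcribes RMRP, and of 35 genes for its subunits, its initiation factors and the proteins that handle its transcripts, 3 rose and 2 fell (edgeR adjusted p under 0.05). These 5 are 14.3% of the list, near the 15.3% of all genes, and the median log2 ratio was 0.023. POLR3G, a subunit that takes the place of POLR3GL in an alternative form of the enzyme, fell from 126.2 ± 7.38 to 105.0 ± 6.70 CPM (log2 ratio -0.27, SE 0.053, adjusted p = 0.000826). POLR3GL was at 13.0 ± 1.89 and 12.4 ± 1.71 CPM (adjusted p = 0.810), and whether this pair differed in response was not tested.

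SSB, which encodes La, a protein that binds the U-rich 3′ end of new Pol III transcripts, fell from 214.5 ± 8.82 to 189.4 ± 8.61 CPM (log2 ratio -0.18, SE 0.042, edgeR adjusted p = 0.00370). CRCP, a Pol III subunit, rose by 0.28 on the log2 scale (SE 0.061, adjusted p = 0.00200) and MEPCE, the enzyme that caps the 7SK RNA, by 0.19 (SE 0.047, adjusted p = 0.00453). For POLR3G, SSB, CRCP and MEPCE the 3 libraries of one group lay apart from those of the other. The groups did not overlap for 12 of the 35 genes of the list, beside 30.8% of all genes tested. SNAPC1 to SNAPC5, which encode the SNAP complex, and POU2F1 and ZNF143 did not pass the test. BRF2, the initiation factor of this promoter type, was at 36.2 ± 1.01 and 41.2 ± 4.65 CPM and did not pass either (adjusted p = 0.133).

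Among 26 factors listed for the processing of ITS1 and ITS2 in the ribosomal RNA precursor, 0 rose and 1 fell (edgeR adjusted p under 0.05). This stands against 15.3% of all genes, and the median log2 ratio was -0.012. The gene that fell was LAS1L, part of the enzyme that cuts ITS2. LAS1L was at 128.0, 120.1 and 121.2 CPM in shCtrl and at 117.6, 96.5 and 110.8 CPM in shmiR155HG libraries (log2 ratio -0.18, SE 0.057, adjusted p = 0.0275). Its adjusted p was 0.123 without shCtrl replicate 1, 0.0567 without shCtrl replicate 2, 0.0653 without shmiR155HG replicate 3 and 0.247 without shmiR155HG replicate 2, its lowest library, where the log2 ratio was -0.11.

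Of 9 genes for proteins reported to bind RMRP and for candidate substrates of RNase MRP, 8 were tested, of which 2 rose and 0 fell, beside 7.26% and 8.02% of all genes, with a median log2 ratio of 0.075. RSAD2, which encodes the antiviral protein viperin, was at 39.5, 35.1 and 42.9 CPM in shCtrl and at 49.0, 50.9 and 49.6 CPM in shmiR155HG libraries. The groups did not overlap, and RSAD2 rose by 0.35 on the log2 scale (SE 0.075, edgeR adjusted p = 0.00169). CCNB1, a mitotic cyclin, rose by 0.14 (SE 0.037, adjusted p = 0.0122), and CCNB2 had a value of 0.13 (SE 0.059) that did not pass (adjusted p = 0.138). DDX5, ELAVL1, GRSF1, PNPT1 and TERT did not pass.

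**Figure D4:**
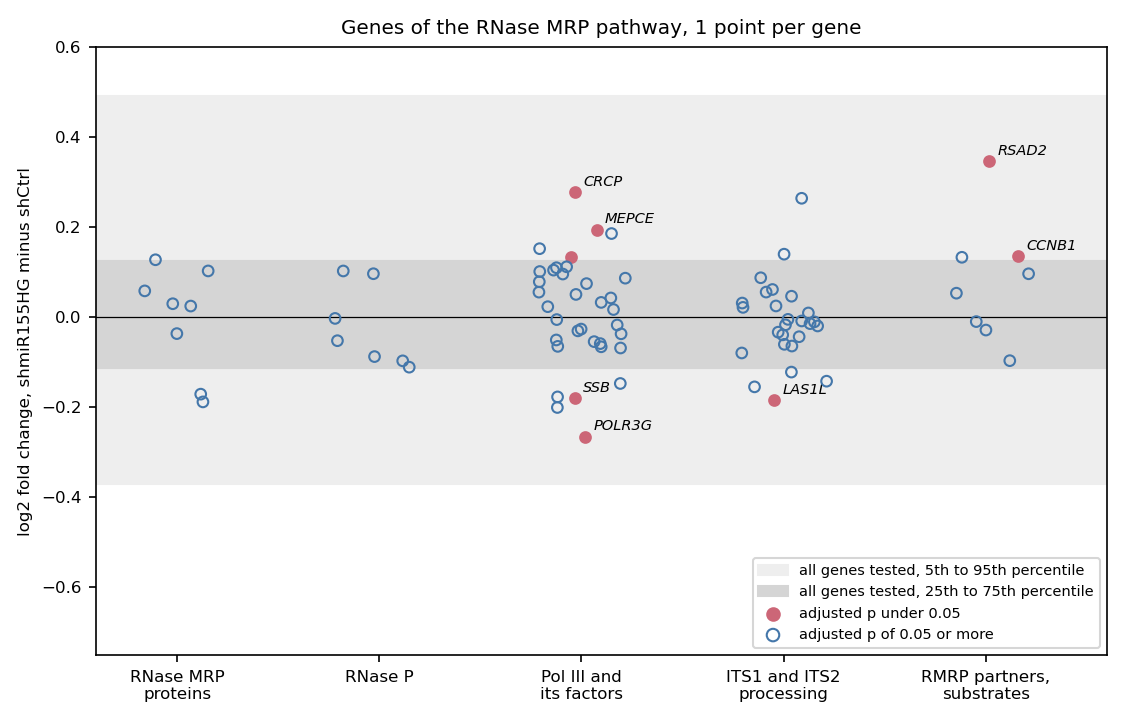
Log2 fold change of shmiR155HG against shCtrl (y axis), with 1 point per tested gene of each list, filled where the adjusted p was under 0.05, over bands with the 25th to 75th and the 5th to 95th percentile of all genes tested. Filled points are 0 of 8 RNase MRP protein genes, 0 of 7 RNase P genes, 5 of 35 Pol III genes, 1 of 26 ITS1 and ITS2 factors and 2 of 8 partners and substrates.

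CCDC107, the gene that starts on the other side of the stretch printed above, showed no detectable difference. It was at 6.02, 5.59 and 9.06 CPM in shCtrl and at 7.71, 7.30 and 6.10 CPM in shmiR155HG libraries. The groups overlapped, and the log2 ratio was 0.032 (SE 0.19, 95% interval -0.36 to 0.43, edgeR adjusted p = 0.944). ARHGEF39, a gene on the minus strand that overlaps CCDC107, fell from 59.5 ± 3.20 to 50.1 ± 3.02 CPM (log2 ratio -0.25, SE 0.068, adjusted p = 0.0124), and its adjusted p was 0.0792 without shCtrl replicate 1 and 0.0821 without shmiR155HG replicate 1. Both neighbours were chosen after the values of RMRP were known.

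Other RNAs that mostly lack a poly(A) tail are given beside RMRP because of the poly(A) capture. RMRP was the only Pol III RNA of those listed that had a row, so the RNAs given here are products of RNA polymerase II. TERC, the RNA of telomerase, was counted 3, 0 and 0 times in shCtrl and 4, 10 and 20 times in shmiR155HG libraries. Its groups were parted only by 3 against 4 counts in replicate 1. SCARNA9, a guide RNA of Cajal bodies, was counted 9, 12 and 4 times against 12, 11 and 4 times, with overlap, and both RNAs were too low to pass the filter. Of 71 replication-dependent histone genes 26 were tested, of which 14 rose and 0 fell, beside 7.26% and 8.02% of all genes, and 9 of the 71 were at 0 in every library. Of the 14, 6 were over 1 CPM in 0 shCtrl libraries and, like RMRP, passed the filter only through shmiR155HG libraries, and the near-identical HIST2H3A and HIST2H3C may share reads. The histone genes summed to 80.2 to 86.2 CPM in shCtrl and 142.8 to 159.1 CPM in shmiR155HG libraries. Single genes weigh heavily in this sum, and HIST1H2AC alone went from 12.2 ± 1.97 to 30.9 ± 0.714 CPM. HIST2H2AA3 and HIST2H2AA4 had nearly equal counts in every library, as did HIST2H4A and HIST2H4B, so the sum may hold shared reads more than once. The part of poly(A) capture or RNA quality in the difference of RMRP was not tested.

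The pattern of RMRP over the 6 libraries was compared with that of 11891 other genes averaging 1 CPM or more, by Pearson's r of log2 CPM. The 5 most alike were ACVR1B, PHC2, FPGS, FAM30A and KIAA0556, with r from 0.991 to 0.997. Their log2 ratios lay between 0.18 for PHC2 and 1.07 for FAM30A. An r over 0.9 was reached by 480 genes, and the 6 libraries fall into 2 groups, so these values describe the libraries and carry no test.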

How the data were processed

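RNA-seq counts of 6 NK-92 libraries were used. According to the methods, the authors aligned the reads from poly(A) RNA to hg38 with HISAT2, ran StringTie limited to reference transcripts, and deposited unnormalized whole-number counts per gene from prepDE.py3. Versions, the annotation release and the use of strand are not given in the sources used here. Of the row identifiers, 99.4% are in GENCODE v44, from which positions and lengths were taken. RMRP was matched by symbol.

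The fit used edgeR 4.0.16 under R 4.3.3 (TMM, quasi-likelihood test, Benjamini-Hochberg adjustment over all 12263 genes that exceeded 1 CPM in 2 or more libraries). DESeq2 1.42.0, limma 3.58.1 and the edgeR exact test were alternatives. The fits were also run on simulated counts with the same biological coefficient of variation for every gene, which does not cover the wider spread of RMRP. The members, gene lists and tests were chosen with earlier results of these data known. Genes named are the members, up to 3 called genes per pathway list and direction, neighbours and overlapping genes of the members, and the 5 genes most like RMRP, and other genes of the lists were named after their values were seen. Some genes counted in the lists are not reported here by name. With counts of 4 to 117 per library, RMRP is the least precise member tested.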

Additional observations from a re-analysis of the deposited data

How the results depend on the processing

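The log2 ratio of RMRP ranged from 2.44 to 3.43 over 15 alternatives, with both ends from fits that left out 1 library. It ranged from 2.83 to 2.96 in the alternatives that kept all libraries. Its direction was fixed by its selection on groups that do not overlap and is no sign of stability. With the replicate number as a block it was 2.85, no protein gene was called, and 5 Pol III genes were called. Replicates with the same number did not deviate together (correlations of -0.013, 0.012 and 0.020 over genes), so the numbers were not treated as pairs, and the block took the count of all genes called from 890 higher and 984 lower to 829 and 909. Under every alternative 0 protein genes and 0 tRNA end processing genes were called, and 4 to 7 Pol III genes. At an unadjusted p under 0.05, 1 protein gene passed in 4 of the 6 fits that left out a library and 0 passed in the other alternatives. The count of ITS1 and ITS2 factors was 0 to 1 with 1 library left out, 0 without shCtrl replicate 1, shCtrl replicate 2, shmiR155HG replicate 2 or shmiR155HG replicate 3. With 1 library left out the log2 ratio of RPP14 ran from -0.077 to 0.00055, that of RPP30 from -0.038 to 0.086, that of RPP38 from -0.063 to 0.12 and that of CCDC107 from -0.097 to 0.28. The signs turned for RPP14 without shmiR155HG replicate 2, for RPP30 without shmiR155HG replicate 3, for RPP38 without shCtrl replicate 2 (-0.034) or shmiR155HG replicate 3, and for CCDC107 without shCtrl replicate 1 (-0.057), shCtrl replicate 2 or shmiR155HG replicate 1 (-0.039). The adjusted p of SSB was 0.0587 without shmiR155HG replicate 2. The cause of these changes was not tested. The median log2 ratio of all genes was 0.00097 with TMM factors, 0.0026 with DESeq2 size factors and 0.0034 with total counts. RPP25 and TERC lie at a depth that allows no fold change.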
